A study of Mus musculus with 6 samples.

Results

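Genes of blood and lymphatic endothelium were examined in the mandibular arch of mouse embryos, the tissue that forms the lower jaw. The 36 genes were named by their known roles in vessels: 19 are pan-endothelial, 4 arterial, 2 venous and 8 lymphatic, and 3 mark sprouting vessels. All 36 had a probe set that the platform annotation assigns to 1 gene, out of 18194 genes so named on the array, and each gene is given by its brightest probe set. Arches were dissected at E10.5 from C57BL/6 embryos labelled Tbx1-/- and Tbx1+/+. Each genotype has 3 Affymetrix Mouse Genome 430 2.0 arrays. Tbx1 encodes a T-box transcription factor of the pharyngeal region, and the study set arches without it against arches with it. Tissue of 3 embryos per genotype was pooled, and the design text does not settle whether each array had a pool of its own, so p-values here measure only the spread between these arrays. The labels do not give the form of the Tbx1 allele or any further treatment.

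Endothelial cells line vessels and are held together by the junction protein encoded by Cdh5. Their growth is driven mainly by VEGF ligands acting on the receptors encoded by Kdr, Flt1 and Flt4, with angiopoietins acting on Tek. Arteries are set apart by Notch signalling and SoxF factors, veins by Nr2f2, and lymphatic endothelium arises from veins under Prox1 and grows towards Vegfc through Flt4. In the mouse, Tbx1 is known to act in lymphatic endothelium, where it is needed for lymphatic vessel growth and activates Flt4. Several of these genes are also active outside endothelium: Nr2f2, Fli1, Vegfc, Ccbe1 and Pdpn in mesenchyme or epithelium, Prox1 in neurons and placodes, and Stab1 and Lyve1 in macrophages. In whole tissue, fewer cells of a type and less RNA per cell cannot be told apart.

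The single probe set of Tbx1 read 7.59, 7.50 and 7.30 (log2) on the arrays labelled Tbx1-/-, against 6.93, 7.31 and 6.92 on the Tbx1+/+ arrays, a difference of 0.41 (SE 0.14, adjusted p = 1.0 in limma). It was thus not lower on the arrays labelled null, and since the sources used here do not say which part of the gene is disrupted, the genotypes are used as labelled. Replicate 3 labelled Tbx1-/- stood apart: 249 genes exceeded their mean over the remaining arrays by more than 1 log2 unit, against 6 to 32 genes on any other array. Summed over 13 trophoblast and decidua markers with a probe set, the linear signal on that array was 25815 units, against 1011 and 1212 on the other arrays labelled null and 874 to 983 on the Tbx1+/+ arrays. Of these markers 10 were tested, with 0 passing in limma, 0 at an unadjusted p under 0.05 and a median difference of 0.75, or 0.20 without that array. Results that rest on this array are therefore also given without it. Array medians lay between 6.08 and 6.15, and precision is limited by having 3 arrays per genotype.

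The labelled tissue carried the defining endothelial markers. Values of Pecam1, Cdh5, Tek, Tie1, Emcn and Plvap were between 6.81 and 9.42 on every array, where 4 was the level a gene had to exceed on at least 3 arrays to be tested. The arterial gap-junction gene Gja5 was the only member under that level, at 3.65 to 3.81 on the arrays labelled null and 3.72 to 3.89 on the Tbx1+/+ arrays, so 35 of 36 members were tested. Members with several probe sets numbered 17. Values of different probe sets cannot be ranked against each other, so levels are compared only between arrays.

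**Figure D1:**
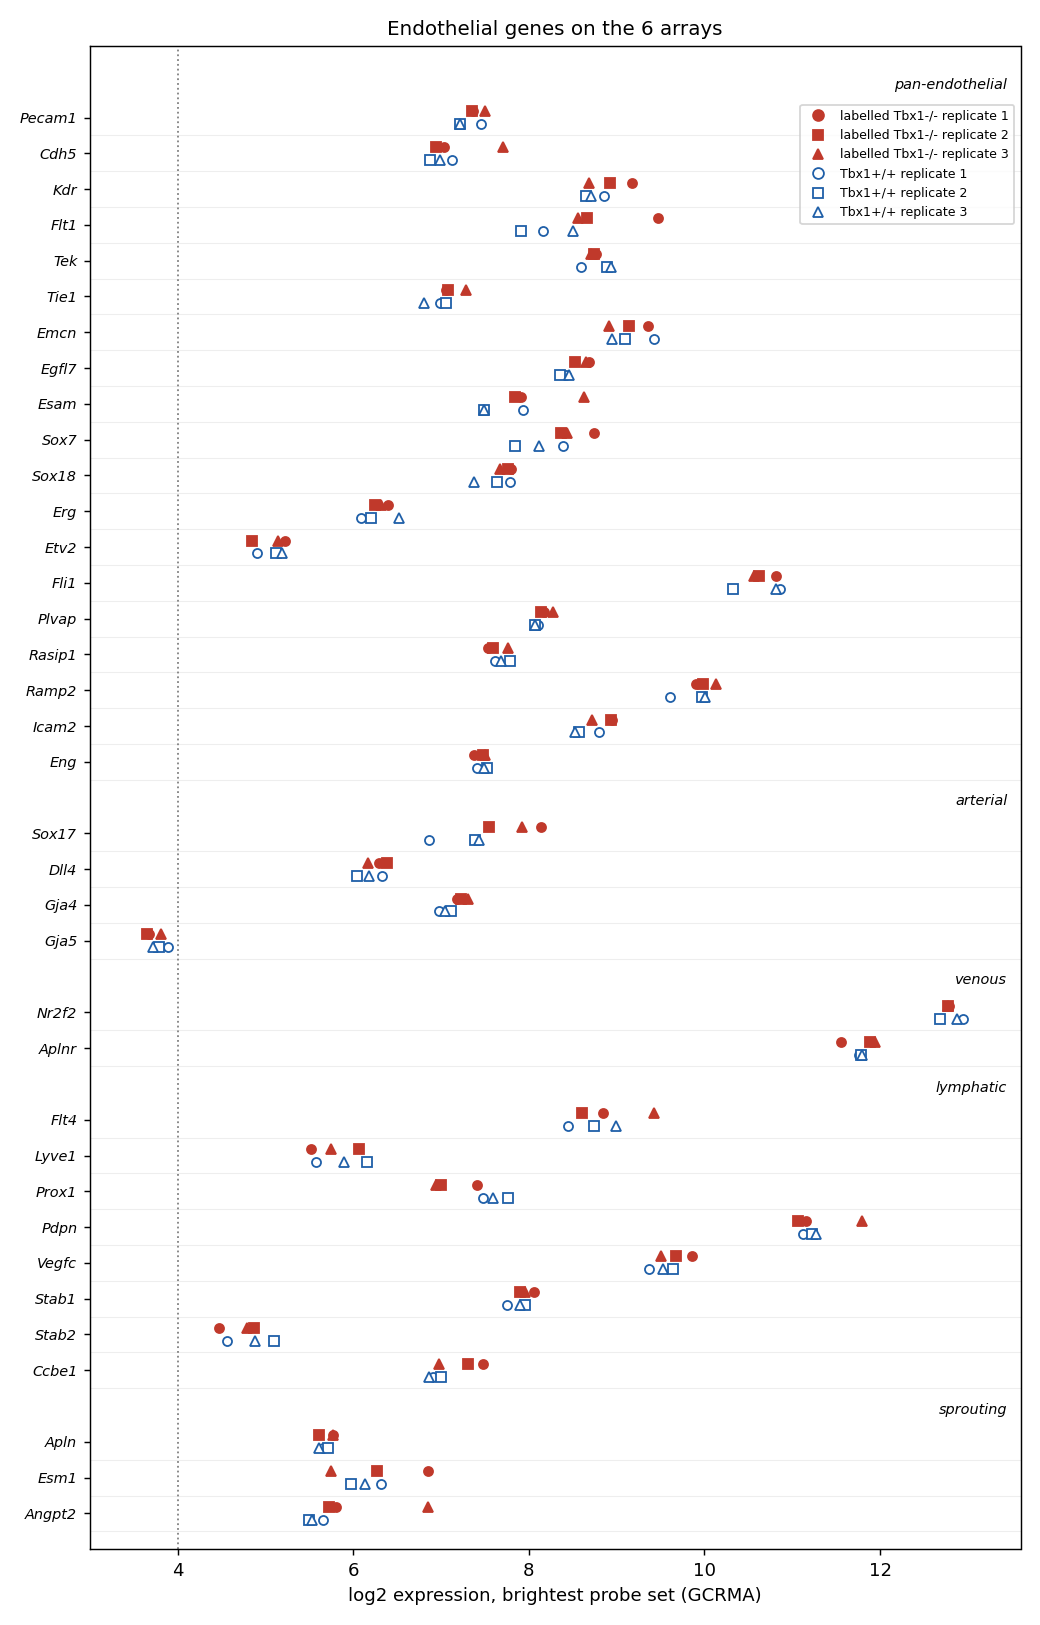
Log2 expression (horizontal axis) of the 36 endothelial genes, with the 3 arrays labelled Tbx1-/- (filled red) above the 3 Tbx1+/+ arrays (open blue) in each row and 1 symbol per replicate number. The dotted line is the level of 4 used as a filter. For most genes the groups overlap, and Gja5 alone lies left of the line.

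Of the 35 members tested, 0 passed the threshold of an adjusted p under 0.05 in limma with Benjamini-Hochberg adjustment over 16074 genes, and 0.0373% of all genes did. Without replicate 3 labelled null 0 members passed, against 0.137% of all genes, and with the replicate number as a block 0 passed, against 0.0622%. Taking limma's unadjusted p under 0.05 instead, 4 members were higher and 1 was lower. These were Flt1, Sox7, Sox17 and Ccbe1 on the higher side and Prox1 on the lower side, 5 of 35 members beside 2.68% of all genes. With the block this count was 8, beside 4.24% of all genes, and without replicate 3 labelled null it was 7, beside 3.19%.

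The differences were small for most members. The log2 difference (labelled Tbx1-/- minus Tbx1+/+) lay within 0.25 of 0 for 28 of the 35, and for 32 the 95% interval stayed within 1 of 0. Its median over the members was 0.13, beside -0.01 over all genes, and 26 of 35 members had higher means on the arrays labelled null, beside 47.3% of all genes. Without replicate 3 labelled null the median was 0.08, with 23 members higher. On 6 members all 3 arrays labelled null lay above the Tbx1+/+ arrays, beside 3.17% of all genes, and on 1 member all lay below, beside 3.25%. The higher ones were Flt1, Egfl7, Plvap, Sox17, Gja4 and Angpt2, and the lower one was Prox1. In a single exact permutation test 3 arrays against 3 cannot go below p = 0.10. Transcripts made in the same cells vary together, so these counts are not counts of independent genes.

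**Figure D2:**
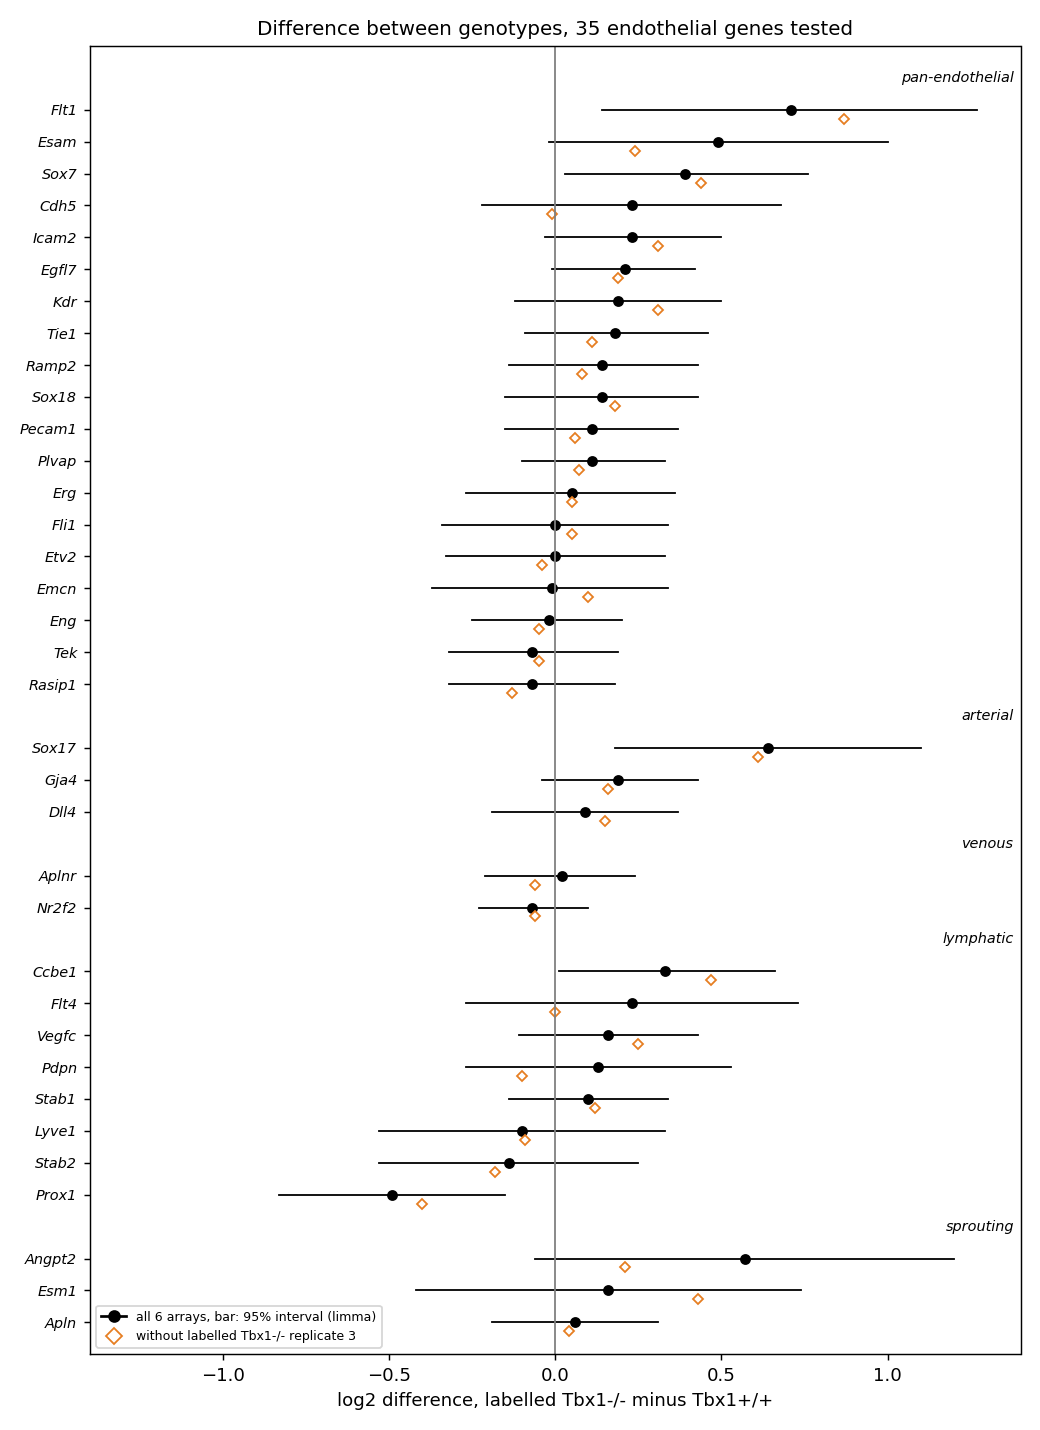
Log2 difference, labelled Tbx1-/- minus Tbx1+/+ (horizontal axis), of the 35 endothelial genes tested, with its 95% interval from limma over all 6 arrays (black) and the difference without replicate 3 labelled Tbx1-/- (open diamonds). Flt1 and Sox17 lie furthest right at 0.71 and 0.64, and Prox1 furthest left at -0.49. The diamonds of Cdh5, Flt4, Angpt2 and Esam lie well left of their circles.

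The blood-vessel VEGF receptors Flt1 and Kdr both had higher means on the arrays labelled null. Flt1, which encodes VEGF receptor 1, a high-affinity decoy that limits signalling through Kdr, read 9.47, 8.66 and 8.56 on the arrays labelled null, against 8.16, 7.91 and 8.50 on the Tbx1+/+ arrays. All arrays labelled null were above all Tbx1+/+ arrays, though the lowest of the one and the highest of the other were nearly equal. The difference was 0.71 (SE 0.25, 95% interval 0.14 to 1.27, n = 3 per genotype), or 1.63-fold, with an adjusted p of 1.0 in limma. It was 0.87 without replicate 3 and 0.42 without replicate 1 labelled null, the array with the highest value. The other 3 probe sets of Flt1 differed by 0.55, 0.43 and 0.09, and of these the set at 0.43 also had groups that did not overlap. Averaged over its sets the difference was 0.44.

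Kdr encodes the main signalling VEGF receptor. It read 9.18, 8.92 and 8.69 on the arrays labelled null, against 8.86, 8.65 and 8.71 on the Tbx1+/+ arrays. The groups overlapped through replicate 3 labelled null, which lay below Tbx1+/+ replicates 1 and 3. The difference was 0.19 (95% interval -0.12 to 0.50) with all arrays, 0.31 without replicate 3 and 0.07 without replicate 1 labelled null. Whether Flt1 and Kdr differed from each other in their response was not tested.

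The RefSeq promoter windows (GRCm38.p6, 250 bases before to 50 after the start site) of Flt1 and Kdr are shown because these receptors bind the same ligand, and that of Prox1 because it was the member furthest in the other direction. All are on the minus strand and are written 5′ to 3′ along the gene, Flt1 at chr5:147725962-147726261, Kdr at chr5:75978406-75978705 and Prox1 at chr1:190170778-190171077. Capitals mark, on either strand, the ETS cores AGGAAG and CCGGAA, which factors such as Erg, Fli1 and Etv2 can bind, and the hypoxia-response cores ACGTG and GCGTG.
Flt1: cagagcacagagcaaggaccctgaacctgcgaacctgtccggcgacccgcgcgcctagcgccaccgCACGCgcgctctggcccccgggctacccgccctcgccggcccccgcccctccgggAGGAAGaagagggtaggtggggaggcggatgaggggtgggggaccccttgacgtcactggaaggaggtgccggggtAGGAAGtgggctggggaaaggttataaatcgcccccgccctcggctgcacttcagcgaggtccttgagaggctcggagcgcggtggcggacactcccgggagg
Kdr: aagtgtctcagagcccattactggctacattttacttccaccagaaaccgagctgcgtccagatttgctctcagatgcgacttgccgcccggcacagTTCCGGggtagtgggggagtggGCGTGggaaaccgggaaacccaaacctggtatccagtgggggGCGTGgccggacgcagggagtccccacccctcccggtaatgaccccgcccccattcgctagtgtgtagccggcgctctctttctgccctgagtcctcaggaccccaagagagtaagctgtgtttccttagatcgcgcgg
Prox1: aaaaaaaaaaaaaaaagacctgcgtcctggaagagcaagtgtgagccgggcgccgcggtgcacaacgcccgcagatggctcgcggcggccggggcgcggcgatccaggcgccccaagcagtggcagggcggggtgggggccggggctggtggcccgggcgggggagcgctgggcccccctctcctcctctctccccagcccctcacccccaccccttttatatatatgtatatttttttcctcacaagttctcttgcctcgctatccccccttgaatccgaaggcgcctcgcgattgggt

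AGGAAG occurred at 2 places in the Flt1 window and at 0 in the Kdr window, and CCGGAA at 0 and 1. GCGTG occurred at 1 place in Flt1 and 2 in Kdr, and none of these cores was in the Prox1 window. Of the 36 members, 22 had windows in the RefSeq table, 27 in all. AGGAAG was in 51.9% of these and in 35.4% of all 32851 windows, CCGGAA in 3.7% and 14.9%, ACGTG in 3.7% and 19.6%, and GCGTG in 25.9% and 32.4%. The T-box core GGTGTGA was in 3.7% and 3.98%, its 1 member being Erg, and the SOX core AACAAT in 11.1% and 10.7%. Both strands were searched. AGGAAG and CCGGAA share GGAA, and ACGTG and GCGTG share CGTG, so matches of such a pair can overlap only in part. A match or its absence in a window says nothing of binding, and the genes shown were chosen after their values were seen.

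SoxF factors, which act together in vessel formation, had higher means on the arrays labelled null in all 3 cases. Sox17, a determinant of arterial identity, read 8.14, 7.54 and 7.92 on the arrays labelled null, against 6.86, 7.39 and 7.43 on the Tbx1+/+ arrays. The groups did not overlap, with Tbx1+/+ replicate 1 well below the rest. The difference was 0.64 (SE 0.20, 95% interval 0.18 to 1.10), or 1.56-fold, adjusted p = 1.0 in limma, 0.61 without replicate 3 labelled null and 0.40 with array weights. Its second probe set differed by 0.30 with overlapping groups.

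Sox7 read 8.74, 8.37 and 8.43 on the arrays labelled null, against 8.39, 7.84 and 8.12 on the Tbx1+/+ arrays. The groups overlapped slightly, between replicate 2 labelled null and Tbx1+/+ replicate 1. The difference was 0.39 (95% interval 0.03 to 0.76), and 0.25 without Tbx1+/+ replicate 2. By replicate number the array labelled null was higher by 0.35, 0.53 and 0.31, and with the block the unadjusted p in limma was 0.00481 and the adjusted p 0.722. The second probe set of Sox7, under 4 on every array, differed by -0.08, and the mean of its sets differed by 0.16. Sox18, mutated in human lymphoedema, differed by only 0.14 (95% interval -0.15 to 0.43).

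Junction and surface genes of all endothelium gave few separations. Egfl7, a secreted vessel factor, read 8.68, 8.52 and 8.65 on the arrays labelled null, against 8.42, 8.35 and 8.46 on the Tbx1+/+ arrays, a difference of 0.21 (95% interval -0.01 to 0.42). Its other 3 probe sets differed by -0.01 to 0.11. Plvap, which builds the diaphragms of endothelial pores, read 8.17, 8.14 and 8.28 on the arrays labelled null, against 8.10, 8.07 and 8.07. The groups of both genes did not overlap, but the nearest arrays of the 2 genotypes were almost level. Icam2, an adhesion molecule, differed by 0.23 (0.31 without replicate 3 labelled null), and Tie1, an orphan receptor that modulates Tek, by 0.18.

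Esam and Cdh5, both genes of endothelial junctions, were highest on replicate 3 labelled null. Esam read 7.91, 7.84 and 8.63 on the arrays labelled null, against 7.93, 7.49 and 7.49 on the Tbx1+/+ arrays, and its difference was 0.49, or 0.24 without replicate 3. Cdh5 read 7.03, 6.94 and 7.70, against 7.12, 6.87 and 6.99, and its difference was 0.23, or -0.01 without replicate 3. The second probe set of Cdh5 was instead highest on replicate 1 labelled null, and differed by 0.14, or 0.13 without replicate 3. On replicate 3 labelled null the trophoblast and decidua markers were high as given above, and the part of these cells in the values was not tested.

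The remaining pan-endothelial members lay close to 0. Pecam1, an adhesion molecule, differed by 0.11, Ramp2, a subunit of the adrenomedullin receptor, by 0.14, and Tek, the angiopoietin receptor, by -0.07. Rasip1, needed for vessel lumens, differed by -0.07, Eng, a co-receptor for BMP ligands, by -0.02 and Emcn, a sialomucin, by -0.01. The ETS factors Erg, Fli1 and Etv2 differed by 0.05, 0.00 and 0.00, with 95% intervals that reached no further than 0.36 from 0. Over the 19 pan-endothelial members the median was 0.14, with 14 higher and 5 lower means, and 0.08 without replicate 3 labelled null, also with 14 and 5. Their mean level per array was 8.19, 8.06 and 8.16 on the arrays labelled null, against 8.03, 7.92 and 7.99 on the Tbx1+/+ arrays. The groups did not overlap, but replicate 2 labelled null and Tbx1+/+ replicate 1 were almost level.

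Arterial members had a median of 0.19 over the 3 tested, with Sox17 highest. Gja4, a connexin gene of arteries, read 7.18, 7.23 and 7.31 on the arrays labelled null, against 6.98, 7.11 and 7.04 on the Tbx1+/+ arrays. The groups did not overlap, and the difference was 0.19 (SE 0.10, 95% interval -0.04 to 0.43). Dll4, the Notch ligand of arteries and tip cells, differed by 0.09 (95% interval -0.19 to 0.37). Gja5, another connexin gene of arteries, was not tested.

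Venous members differed least. Nr2f2, the factor that keeps venous identity by repressing Notch, read 12.78, 12.77 and 12.77 on the arrays labelled null, against 12.94, 12.68 and 12.88 on the Tbx1+/+ arrays. Its difference of -0.07 had a 95% interval of -0.23 to 0.10, and its other 5 probe sets differed by -0.21 to -0.04. Aplnr, the apelin receptor of veins, read 11.56, 11.88 and 11.94, against 11.76, 11.78 and 11.79, a difference of 0.02 (95% interval -0.21 to 0.24). In both genes the groups overlapped. Median differences between arterial and venous members rest on 3 and 2 genes and were not tested.

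Lymphatic members differed in direction from one another, and none passed the test. Prox1, the homeobox factor that specifies lymphatic endothelium, read 7.41, 7.00 and 6.94 on the arrays labelled null, against 7.48, 7.76 and 7.59 on the Tbx1+/+ arrays. All arrays labelled null were below all Tbx1+/+ arrays. The difference was -0.49 (SE 0.15, 95% interval -0.83 to -0.15), with Tbx1+/+ 1.41-fold higher, an unadjusted p of 0.0108 and an adjusted p of 1.0 in limma. It ranged from -0.64 without replicate 1 to -0.40 without replicate 3 labelled null. The second probe set of Prox1 differed by 0.13, at 5.26 or below on the arrays labelled null, and the other by -0.15 at values of 3.18 or below, so the direction holds for the brightest set and not for the second, and the mean of the sets differed by -0.17.

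Flt4, which encodes the receptor of Vegfc, read 8.84, 8.60 and 9.42 on the arrays labelled null, against 8.44, 8.74 and 8.99 on the Tbx1+/+ arrays. The groups overlapped, and the difference of 0.23 (95% interval -0.27 to 0.73) was 0.00 without replicate 3 labelled null. Its second probe set differed by 0.34, and by 0.15 without that array. Over all arrays, neither set had a lower mean on the arrays labelled null. The 95% interval of the brightest set reaches -0.27, so it does not settle whether Flt4 was lower.

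Vegfc and Ccbe1 encode a lymphatic growth factor and the secreted protein needed for its processing. Ccbe1 read 7.48, 7.31 and 6.98 on the arrays labelled null, against 6.91, 7.00 and 6.86 on the Tbx1+/+ arrays. The groups overlapped through replicate 3 labelled null, and the difference was 0.33 (95% interval 0.01 to 0.66), or 0.47 without that array (unadjusted p = 0.00502 and adjusted p = 0.71 in limma). Its other 3 probe sets, at 4.30 or below, differed by -0.10 to 0.18. Vegfc read 9.86, 9.67 and 9.51, against 9.37, 9.64 and 9.53, a difference of 0.16, with 0.17 and 0.22 on its other sets.

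Markers of lymphatic and sinusoidal endothelium that macrophages also carry gave no separation. Lyve1, a hyaluronan receptor, differed by -0.10 (95% interval -0.53 to 0.33), Stab1, a scavenger receptor, by 0.10 and Stab2, its relative, by -0.14. Pdpn, a mucin-like surface protein, read 11.16, 11.06 and 11.79 on the arrays labelled null, against 11.12, 11.23 and 11.27 on the Tbx1+/+ arrays. Its difference was 0.13, or -0.10 without replicate 3 labelled null. The median over the 8 lymphatic members was 0.12, with 5 higher and 3 lower, but -0.04 without that array, with 3 higher and 5 lower. Of 14 macrophage markers with a probe set 0 passed in limma, with 5 higher and 9 lower means and a median of -0.04 (-0.18 without replicate 3 labelled null). At an unadjusted p under 0.05, 2 were lower, beside 193 of all 16074 genes. C1qb and Mrc1 differed by -0.41 and -0.40, Fcgr1 by -0.22 and Cd14 by 0.45, or 0.07 without that array. The summed linear signal of the macrophage markers was 1321, 1391 and 5055 units on the arrays labelled null, against 1546, 1936 and 1439 on the Tbx1+/+ arrays, and none of them was under 4 on every array. The high sum on replicate 3 rested on 1 gene: without Csf1r the sums were 1243, 1272 and 1571 units on the arrays labelled null, against 1416, 1690 and 1275. Csf1r, named after its values were seen, read 11.77 on replicate 3 labelled null, against 6.30 and 6.90 on the other arrays labelled null and 7.01 to 7.94 on the Tbx1+/+ arrays. The part of macrophages in the lymphatic values was not tested.

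Sprouting genes depended on single arrays. Angpt2, an angiopoietin that loosens vessels, read 5.80, 5.72 and 6.85 on the arrays labelled null, against 5.65, 5.49 and 5.53 on the Tbx1+/+ arrays. The groups did not overlap, but replicate 3 labelled null was more than 1 above every other array, and the difference was 0.57 (95% interval -0.06 to 1.20) with it and 0.21 without it. The second probe set of Angpt2 differed by 0.09 with overlapping groups, and by 0.01 without replicate 3 labelled null. Esm1, a proteoglycan of tip cells induced by VEGF, read 6.85, 6.27 and 5.75, against 6.32, 5.97 and 6.13. Here replicate 3 labelled null was the lowest of all arrays, and the difference was 0.16 (95% interval -0.42 to 0.74), 0.43 without that array and -0.12 without replicate 1 labelled null. Apln, the apelin ligand, differed by 0.06.

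**Figure D3:**
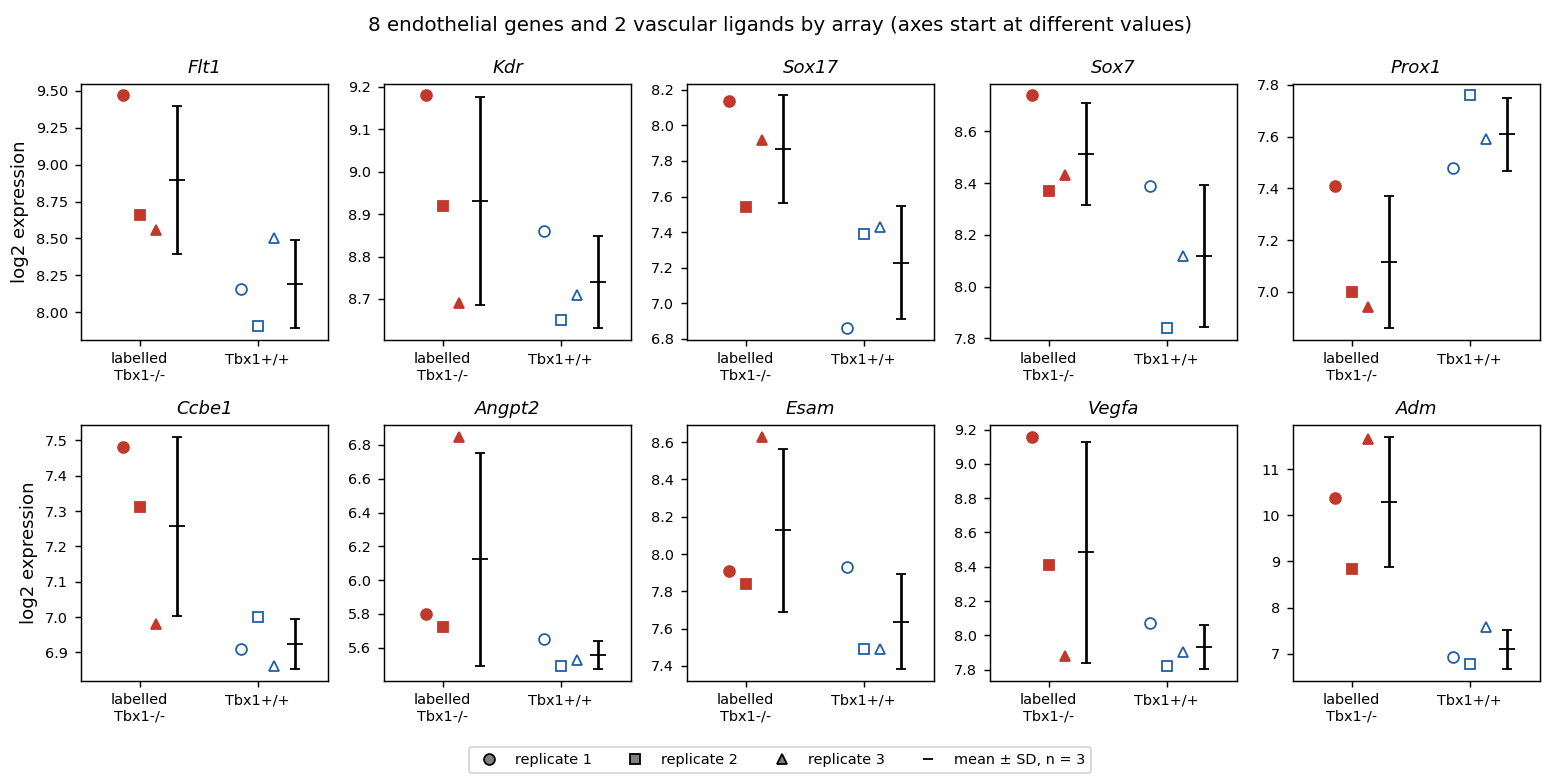
Log2 expression (vertical axes, each with its own range) of 8 endothelial genes and the ligands Vegfa and Adm on the 3 arrays labelled Tbx1-/- (left, red) and the 3 Tbx1+/+ arrays (right, blue), with mean ± SD beside each group. Flt1, Kdr, Ccbe1 and Vegfa are highest on replicate 1 labelled Tbx1-/- and lowest of that genotype on replicate 3. Angpt2, Esam and Adm are highest on replicate 3.

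Vascular ligands outside the members were compared next. Vegfa, the ligand of Kdr and Flt1, read 9.16, 8.41 and 7.88 on the arrays labelled null, against 8.07, 7.82 and 7.90 on the Tbx1+/+ arrays, a difference of 0.55 (SE 0.28), or 0.85 without replicate 3 labelled null (adjusted p = 0.487 in limma). Replicates 1 and 2 labelled null lay above all Tbx1+/+ arrays and replicate 3 among them. Among the arrays labelled null the order was replicate 1, 2, 3 for Vegfa, and 12 of the 35 members (34.3%) had that order, beside 21.3% of all genes. They were Flt1, Kdr, Ccbe1, Vegfc, Esm1, Tek, Emcn, Sox18, Fli1, Icam2, Nr2f2 and Prox1. Their differences ran from -0.49 for Prox1 to 0.71 for Flt1, and a link with Vegfa was not tested. Genes induced by hypoxia also had the highest mean level on replicate 1, at 10.93, 10.43 and 10.42 over 20 genes on the arrays labelled null, against 9.64, 9.73 and 9.82 on the Tbx1+/+ arrays. The hypoxia list was chosen with earlier results of these data known. Within it all 20 means were higher on the arrays labelled null, beside 47.3% of all genes. In limma over all genes 1 of them, Bhlhe40, rose (log2 difference 2.48, adjusted p = 0.0461), beside 0.0373% of all genes passing. Without replicate 3 labelled null 5 of the 20 passed, beside 0.137%. With the replicate block 3 did, Bhlhe40, Ndrg1 and Adm, beside 0.0622%. At an unadjusted p under 0.05 over all arrays there were 18, beside 1.47% of all genes on the higher side. Low oxygen is known to induce Vegfa and Flt1, and whether it plays a part in the endothelial values was not tested.

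Adm encodes adrenomedullin, a peptide that acts on endothelium through Calcrl with Ramp2. Adm read 10.38, 8.84 and 11.66 on the arrays labelled null, against 6.93, 6.77 and 7.58 on the Tbx1+/+ arrays, a difference of 3.20 (SE 0.60, adjusted p = 0.353 in limma, and 0.0431 with the replicate block). It was highest on replicate 3 labelled null, and without that array the difference was 2.51 (adjusted p = 0.0862 in limma). Of its receptor genes, Calcrl differed by 0.16 (SE 0.16), Ramp2 by 0.14 (SE 0.12) and Ramp3 by -0.08 (SE 0.30). Without replicate 3 labelled null Ramp3, named after its values were seen, differed by -0.46 (unadjusted p = 0.029 in limma). Ramp2 read 9.90, 9.98 and 10.13, against 9.61, 9.97 and 10.01, with overlapping groups.

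Other genes of the vascular pathways passed in no direction. In VEGF and angiopoietin signalling 0 of 11 genes passed in limma, and 0 were at an unadjusted p under 0.05 (median difference 0.08). Without replicate 3 labelled null the median was 0.03, with 1 higher, Vegfa, and 1 lower, Pgf, at that p (Pgf named after its values were seen). Of all genes 3.19% were at that p in either direction without that array. The VEGF co-receptor genes Nrp1 and Nrp2 differed by 0.08 and 0.12 (0.19 for each without that array), and Ptprb, a phosphatase that restrains Tek, by 0.11. In Notch and ephrin signalling 0 of 13 passed, with 0 at an unadjusted p under 0.05 and a median of -0.03. Without replicate 3 labelled null 1 was higher, Hey2, and 1 lower, Heyl, at that p, again beside 3.19% of all genes. Hey2, a Notch target of arteries, differed by 0.40 (SE 0.24), or 0.64 without that array, Heyl by -0.52 (SE 0.27), or -0.70, and the ligand Dll1 by -0.29 (SE 0.13). In the list of adrenomedullin, apelin, BMP9 and S1P signalling 0 of 10 passed. At an unadjusted p under 0.05, 3 were higher, beside 1.47% of all genes. Without replicate 3 labelled null 3 were higher, beside 1.78%, and 1, Ramp3, was lower, beside 227 of all 16074 genes. Acvrl1, the endothelial receptor of BMP9 that works with Eng, read 7.45, 7.22 and 7.27 on the arrays labelled null, against 6.94, 6.87 and 6.88 on the Tbx1+/+ arrays. Its groups did not overlap, the difference was 0.41 (SE 0.11) and the adjusted p was 1.0. The BMP target Id1 differed by 0.32 (SE 0.14).

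Endothelial surface and junction genes outside the members had a median of 0.15, with 14 of 18 higher, 0 passing in limma and 4 higher at an unadjusted p under 0.05, beside 47.3% of all genes with higher means and 1.47% higher at that p. Without replicate 3 labelled null the median was 0.11, with 12 higher and 3 at that p, beside 1.78% of all genes. Clec14a, a lectin-like endothelial receptor, read 7.94, 7.77 and 7.35 on the arrays labelled null, against 7.29, 7.11 and 7.07, a difference of 0.53 (SE 0.16), or 0.70 without replicate 3 labelled null (adjusted p = 0.184). Mmrn2, the matrix partner of Clec14a, differed by 0.36 (SE 0.10) and Adgrl4, an endothelial adhesion receptor, by 0.36 (SE 0.12), each with groups that did not overlap. Procr, Thbd and Adgrf5, named after their values were seen, were high on replicate 3 labelled null alone: 11.37, 11.48 and 9.84 there, against at most 6.52, 8.59 and 7.36 on the other arrays. Procr and Thbd are anticoagulant receptors that trophoblast also makes. The part of such cells in the values of these 3 genes was not tested.

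Of 15 endothelial transcription factors outside the members 0 passed, with a median of -0.03. By limma's unadjusted p under 0.05, 2 were higher and 2 lower, beside 2.68% of all genes in either direction. The higher ones were Ets2 at 0.15 and Gata2 at 0.50, and Gata2 was highest on replicate 3 labelled null. Without that array Ets2 and Gata2 were at 0.14 and 0.24. The count was then 0 higher and 2 lower, beside 3.19% of all genes in either direction. Foxc1 and Foxc2, forkhead factors of both mesenchyme and vessels that act in arterial and lymphatic development, were the lower ones. Foxc2 averaged 10.36 ± 0.12 on the arrays labelled null and 10.91 ± 0.12 on the Tbx1+/+ arrays (SD, n = 3 each), a difference of -0.55 (SE 0.10, adjusted p = 0.293 in limma, and 0.0742 with the replicate block). Foxc1 read 9.63, 9.56 and 9.64, against 10.10, 10.05 and 10.29, a difference of -0.54 (SE 0.09, adjusted p = 0.293). In both genes the groups lay clearly apart.

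**Figure D4:**
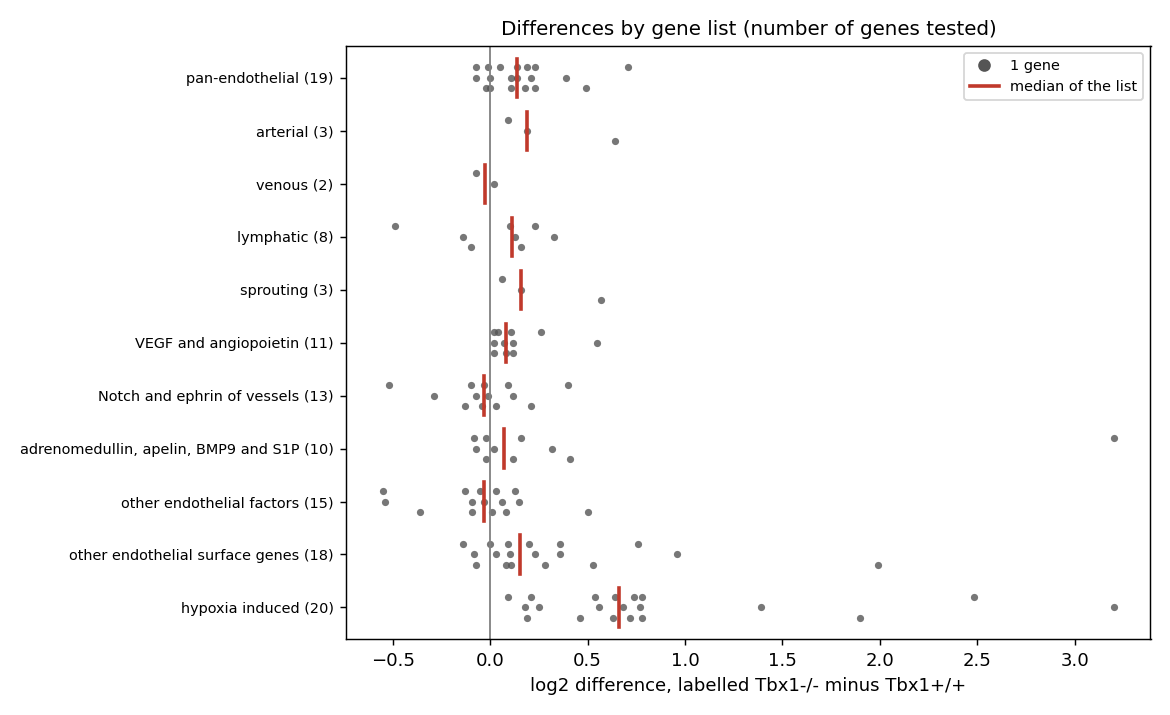
Log2 difference, labelled Tbx1-/- minus Tbx1+/+ (horizontal axis), of every tested gene (grey points) in the 5 classes of endothelial members, 5 lists of other vascular genes and the hypoxia-induced genes, with the median of each list in red. Medians run from -0.03 to 0.19 for the endothelial and vascular lists and reach 0.66 for the hypoxia-induced genes, with Adm drawn in 2 lists.

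Cells that accompany vessels showed no called difference in limma. Of 10 tested markers of pericytes and smooth muscle 0 passed, and 0 were at an unadjusted p under 0.05, with Rgs5 at 0.25 (SE 0.14) and Acta2 at -0.45 (SE 0.29). Without replicate 3 labelled null Rgs5 was at 0.17 and Acta2 at -0.08. Primitive erythroid genes, which report the blood in the vessels, had a median of -0.14 over 9 genes with 0 passing and 0 at an unadjusted p under 0.05. All 9 means were lower on the arrays labelled null, beside 47.3% of all genes with higher means. Without replicate 3 labelled null 7 were lower and 2 higher, with a median of -0.11. Their summed signal was 46084, 44691 and 38215 units on the arrays labelled null, against 46094, 45514 and 45598 on the Tbx1+/+ arrays. Megakaryocyte and platelet genes, some of whose cells share Pecam1, Esam and Fli1 with endothelium, had a median of 0.03 over 7 genes, also with 0 and 0. Their means were 5 higher and 2 lower, but 2 higher and 5 lower without replicate 3 labelled null, with a median of -0.06. Summed, the platelet markers gave 710, 727 and 869 units on the arrays labelled null, against 854, 741 and 614, and Gp6 was under 4 on every array. The heart list had a median of 0.10 over 9 genes with 0 and 0, epithelium 0.02 over 10 genes and arch mesenchyme 0.01 over 12. Without replicate 3 labelled null these medians were 0.02, 0.09 and 0.02. Epithelium and arch mesenchyme each had 0 passing and 1 higher at an unadjusted p under 0.05, beside 1.47% of all genes. Yolk sac endoderm genes had a median of -0.36 over 9 genes, with 0 passing. At an unadjusted p under 0.05, 3 were lower, beside 193 of all 16074 genes. Ttr fell with the replicate block (log2 difference -1.78, adjusted p = 0.0361 in limma).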

How the data were processed

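The authors deposited 1 log2 value for each probe set and array, made with GCRMA per the submitters' processing notes. The sources used here do not give its version, and the log2 scale was read from the values (1.95 to 15.11). GCRMA normally equalises the arrays' distributions, which would hide a shift common to most genes. Per the labels' protocols 100 ng of total RNA was amplified. Of 45101 probe sets, 34958 had 1 gene symbol in the platform annotation (34754 matched by gene ID to RefSeq, 0 symbols changed) and 932 had several, among them 2 sets shared by Ramp2 and another gene, which were not used. The members had 65 sets. Each of 18194 genes was given by its brightest set over the 6 arrays and tested if that set exceeded 4 on 3 or more arrays. This kept 16074 genes and removed 2120. That filter uses no genotype.

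Genotypes were compared with limma 3.58.1 in R 4.3.3 (lmFit, eBayes with an intensity trend, genotype only), with Benjamini-Hochberg adjustment over all genes and a threshold of 0.05. The step was tested on simulated data with shifts larger than the difference of any member. That test therefore does not bear on differences of the members' size. Summed signals are sums of 2 to the power of the log2 value. Alternatives were a replicate block, leaving out each array, no filter, the mean of all probe sets, values under 4 raised to 4, no trend, further quantile normalization, median centring and array weights. Arrays sharing a replicate number had deviations from their genotype's mean that correlated at 0.261, 0.13 and 0.135, and all other pairs across genotypes at -0.195 to 0.065. The replicate block is therefore given beside the main fit, on the data alone, since the labels do not say what a number shares. The main fit does not pair the arrays, and values come from it unless the block is named. Within a genotype 2 arrays differed with an SD of 0.235 to 0.438, so none was a copy. The members and lists were chosen with earlier results of these data known. Genes outside the members were named by a rule: up to 4 of each list with the smallest p, with Tbx1, Vegfa, Adm and Calcrl fixed. Exceptions are marked. Coordinates are those of the RefSeq windows alone.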

Additional observations from a re-analysis of the deposited data

How the results depend on the processing

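No member passed in limma over all genes under any of the 14 alternatives, with 3 to 8 members at an unadjusted p under 0.05 and 8 with the replicate block, which changed no call among the members. The pan-endothelial median of 0.14 was 0.09 with array weights and lay between 0.08 and 0.18 with 1 array left out. The arterial median was 0.14 without the filter, which adds Gja5, and 0.16 to 0.23 with 1 array left out. The lymphatic median was 0.00 with array weights and -0.04 to 0.15 with 1 array left out, the venous median -0.06 to 0.03 and the sprouting median 0.03 to 0.25. With array weights Emcn differed by 0.05, Erg by -0.05, Flt4 by -0.03, Lyve1 by 0.03 and Pdpn by -0.03, and with the mean of all probe sets Erg differed by -0.05 and Eng by 0.04, each against its sign with the brightest set. With 1 array left out the difference ran from -0.01 to 0.37 for Cdh5, -0.12 to 0.12 for Emcn, -0.04 to 0.18 for Erg, -0.05 to 0.01 for Eng, -0.06 to 0.13 for Aplnr, -0.25 to 0.04 for Lyve1, -0.10 to 0.27 for Pdpn and -0.12 to 0.43 for Esm1. Flt1 stayed between 0.42 and 0.87, Sox17 between 0.46 and 0.80 and Prox1 between -0.64 and -0.40 with 1 array left out. With array weights these were 0.51, 0.40 and -0.56, and with the mean of all probe sets these were 0.44, 0.47 and -0.17. The cause of these changes was not tested. Low signal limits Gja5, which stayed under 4 on every array.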
